A study of Homo sapiens with 3 samples.

Results

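A set of 48 neuronal and REST-regulated genes was read across SKOV-3 cells, a human ovarian cancer line, that carried G9a shRNA1, G9a shRNA2 or, as the control, Luc shRNA, which targets luciferase. The 48 genes were REST, its corepressor RCOR1 and 46 genes known for their activity in neurons, and they were found by symbol among the 19775 genes that the arrays measured with a probe set of a single symbol. The cells of all 3 conditions were transduced with lentivirus and selected with puromycin as stable populations, and whether these were clones or pools is not given in the sources used here. Each condition was measured once, on 1 Affymetrix array with no replicate, so no spread within a condition is known and no p-value between conditions is given, and precision is limited by that number. MAS5, the Affymetrix signal algorithm, gave the values, which are linear.

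REST is a zinc finger repressor that binds a DNA element called RE1 (also NRSE) in and near genes of neurons, and through RCOR1 and other partners it keeps them silent in cells that are not neurons. G9a, the product of EHMT2, writes mono- and dimethylation on lysine 9 of histone H3 and is among the enzymes that REST can recruit. The comparison therefore addresses whether genes of this kind read higher in epithelial cancer cells with less EHMT2 transcript.

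An exact copy of both RE1 core motifs lay before a RefSeq start of SYN1 and GRIA2, and VGF held a copy with a single change. The motifs searched were CAGCACC and GGACAG with 2 bases between them, on both strands, over 13 compared positions. The windows ran from 250 bases before to 50 bases after each annotated start in the RefSeq table of build GRCh38.p14, which held a window for 34 of the 48 genes. The matches are shown because they are the element that REST reads. The genes were chosen as REST-regulated, which ties the choice to this element, so the shares that follow are a description of the set. Each line runs 5′ to 3′ in the direction of the element, with 7 bases on either side, and the capitals mark the motifs.
SYN1, chrX:47620067-47620095, minus strand: ccagcttCAGCACCgcGGACAGtgccttc
GRIA2, chr4:157220385-157220413, minus strand: ggcctttCAGCACCgaGGACAGcgcctcg
VGF, chr7:101165554-101165582, plus strand: ccggcttCAGCACGctGGACAGcgcccgc
The SYN1 element began 231 bases and the GRIA2 element 227 bases before an annotated start, while that of VGF spanned the start, reaching from 6 bases before it into the transcript. The VGF change is C7G, counted from the first base of CAGCACC. With no mismatch allowed, 5.88% of the 34 genes and 0.0586% of the 27305 genes of the table held a match. With up to 2 mismatches the shares were 8.82% (the same 3 genes) and 2.49%, and with up to 3 they were 26.5% and 19.1%. A match is a description of letters and not a bound site, and RE1 elements also lie in introns and further away, outside windows of this size.

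PCLO, the gene that moved furthest among the bright members, held no such match, and its closest stretch differed at 5 of the 13 positions. Its 250 bases before the start (chr7:83162885-83163134, minus strand, build GRCh38.p14) are shown because the main result of the set falls on this gene, with each CpG part of the count that follows.
PCLO: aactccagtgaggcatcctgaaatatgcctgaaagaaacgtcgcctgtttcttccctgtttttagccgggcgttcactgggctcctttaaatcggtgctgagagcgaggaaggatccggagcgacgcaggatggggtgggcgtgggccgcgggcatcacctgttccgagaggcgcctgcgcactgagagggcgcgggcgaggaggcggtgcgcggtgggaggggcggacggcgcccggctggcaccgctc
This stretch held 26 CpGs at 65.6% G and C. The 300-base window of PCLO held 33 CpGs, and across windows of that length the median was 24.5 CpGs in the 34 genes and 22 in the 15384 measured genes with a window.

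The brightest EHMT2 probe set was lower with both G9a shRNAs, at 29.7 with G9a shRNA1 and 79.2 with G9a shRNA2, against 182 with Luc shRNA. A second detected probe set was within 2-fold, at 23.9 and 16.4 against 27.6 (log2 ratios of -0.21 and -0.75). Of 15 markers of epithelium and ovarian cancer, 13 were past the median of all values on each array, including ERBB2, which is amplified in SKOV-3, at 1421 and 1803 in the G9a shRNA arrays and 1828 in the Luc shRNA array. The epithelial markers summed to 9634 and 11317 with the G9a shRNAs and to 8223 with Luc shRNA. KRT8 stood at 1087 and 1381, against 849 with Luc shRNA, and KRT18 at 2749 and 3302, against 2510. Of 13 glial markers, 4 and 3 passed the median in the G9a shRNA arrays and 4 in the Luc shRNA array. On at least 1 array 5 of the 13 passed it, and 1 of these was past the 75th percentile of all values. Among the others, GFAP, OLIG2 and SOX10 were under the median on all 3 arrays. The glial markers summed to 424 and 645 with the G9a shRNAs and to 496 with Luc shRNA. The part of these shifts in the results below was not tested. The median signal of an array was 12.3 and 11.8 with the G9a shRNAs and 11.7 with Luc shRNA. The β-actin control probe sets had a 3′ to 5′ signal ratio of 1.83 and 1.47 with the G9a shRNAs and of 3.68 with Luc shRNA, while GAPDH gave 1.12 and 1.14 against 1.15.

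Most of the neuronal genes were low or not detected in SKOV-3, with or without the G9a shRNAs. Where several probe sets report a gene, the one brightest on average (on the log2 scale) stood for it, and the gene counted as detected on an array when its signal reached the median of all values, 12.0. By that measure 21 of the 48 genes were detected with G9a shRNA1, 20 with G9a shRNA2 and 19 with Luc shRNA, which is 43.8%, 41.7% and 39.6%, whereas 62%, 61.9% and 62% of all genes were. At least 1 array detected 25 of the 48 (52.1%, against 66.7% of all genes) and all 3 arrays detected 16 (33.3%, against 57.7%). Only 7 genes, REST, RCOR1, PCLO, BDNF, STMN3, GAD1 and CALB1, had a signal past the 75th percentile of all values, 89.7, a share of 14.6% against 42.2% of all genes. Nearest to the median were GRIN1, whose highest signal was 12.3, just past it, and UCHL1 at 11.2, just under it.

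**Figure D1:**
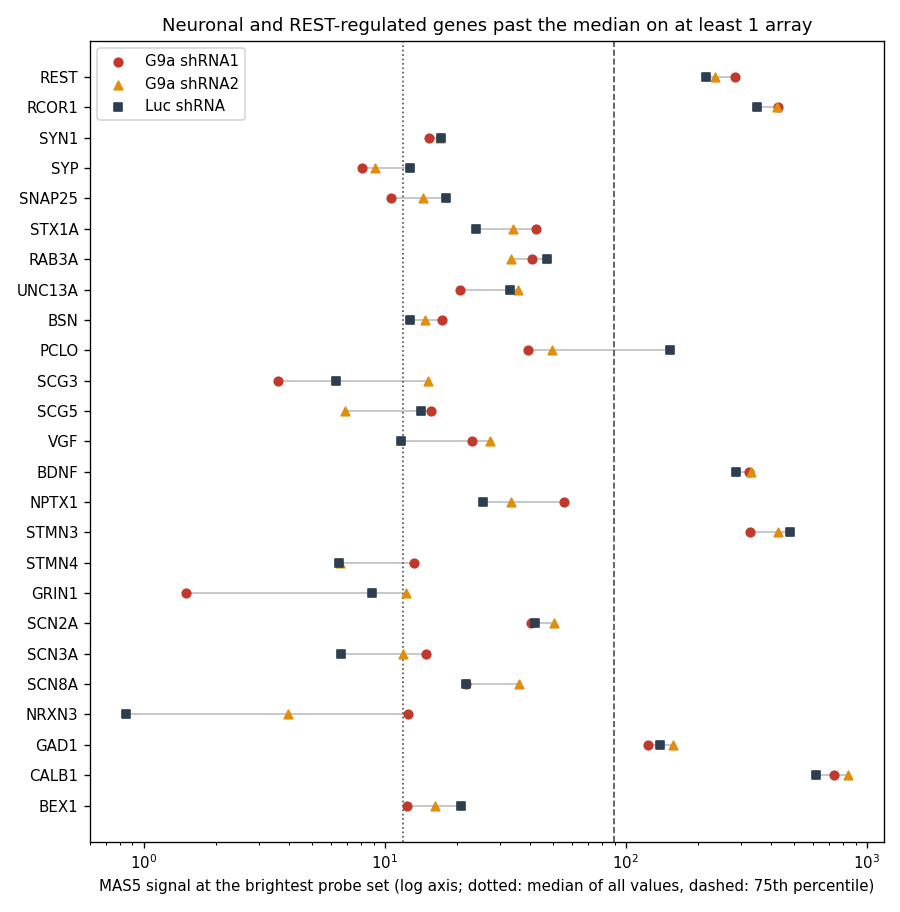
MAS5 signal of the 25 neuronal and REST-regulated genes that passed the median on at least 1 array, at the brightest probe set of each, on a log axis (red circles G9a shRNA1, orange triangles G9a shRNA2, dark squares Luc shRNA, 1 array each). The dotted line is the median of all values (12.0) and the dashed line the 75th percentile (89.7); only PCLO has both G9a shRNA points well to the left of a Luc shRNA point that is past the dashed line.

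Few of these genes were past 2-fold with both G9a shRNAs. Among the 25 detected genes, 1 was more than 2-fold higher with both G9a shRNAs (NRXN3) and 1 was more than 2-fold lower with both (PCLO). Each is 4% of the 25, and over all 13192 detected genes 2.57% were higher and 1.66% lower with both. NRXN3 reached the median on the G9a shRNA1 array alone, so it entered the 25 through an array on which it was high. With signals below the median set to it, 0 of the 25 were more than 2-fold higher with both, and PCLO was still lower. Since the 2 comparisons share the 1 Luc shRNA array, a low or high reading on that array enters both ratios.

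With G9a shRNA1 alone, 4 of the 25 were more than 2-fold higher (NPTX1, NRXN3, SCN3A and STMN4), where 4.21% of all detected genes were, and 2 were lower (GRIN1 and PCLO), where 5.1% were. With G9a shRNA2 alone, 3 were higher (NRXN3, SCG3 and VGF; 4.35% of all detected genes) and 2 were lower (PCLO and SCG5; 3.58%). As shares of the 25, 16% were higher and 8% lower with G9a shRNA1, and 12% were higher and 8% lower with G9a shRNA2. These shares were above those of all genes. However, NRXN3, SCN3A and STMN4 reached the median on the G9a shRNA1 array alone, and SCG3 on the G9a shRNA2 array alone. Each thus entered the 25 through the array on which it was highest. No result about the set is read from the shares higher. With signals below the median set to it, 1 gene stayed more than 2-fold higher with G9a shRNA1 (NPTX1) and 1 with G9a shRNA2 (VGF). Apart from PCLO, each of the named genes was under the 75th percentile on all arrays. The set was also dimmer than other detected genes, with 18 of 25 between the median and the 75th percentile against 4844 of 13192. Of the 18 members between the median and the 75th percentile, 27.8% had signals over 2-fold apart on the G9a shRNA1 and G9a shRNA2 arrays, as did 14.3% of all genes at that level. None of the 7 bright members did, and 0.407% of bright genes did. In those 7, 0 were past 2-fold higher with both shRNAs (0.611% of the 8348 bright genes) and 1, PCLO, was past 2-fold lower (0.467%).

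The set as a whole stayed near the other genes. The median log2 ratio to Luc shRNA over the 48 genes was 0.06 with G9a shRNA1 and 0.21 with G9a shRNA2, against 0.02 and 0.09 over all genes. Over the 25 detected genes it was -0.01 and 0.21, against 0.00 and 0.12 over all detected genes. Among the 25 detected genes, 11 were on the higher side with both shRNAs (44%, as in 44% of all detected genes), 7 on the lower side with both (28%, against 30.8%) and 7 changed side between the shRNAs (28%, against 25.3%). Of the 29 genes under the median with Luc shRNA, only VGF reached it with both G9a shRNAs (3.45%, against 4.06% of all such genes). Of the 19 at or above it with Luc shRNA, only SYP was under it with both (5.26%, against 3.2%).

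**Figure D2:**
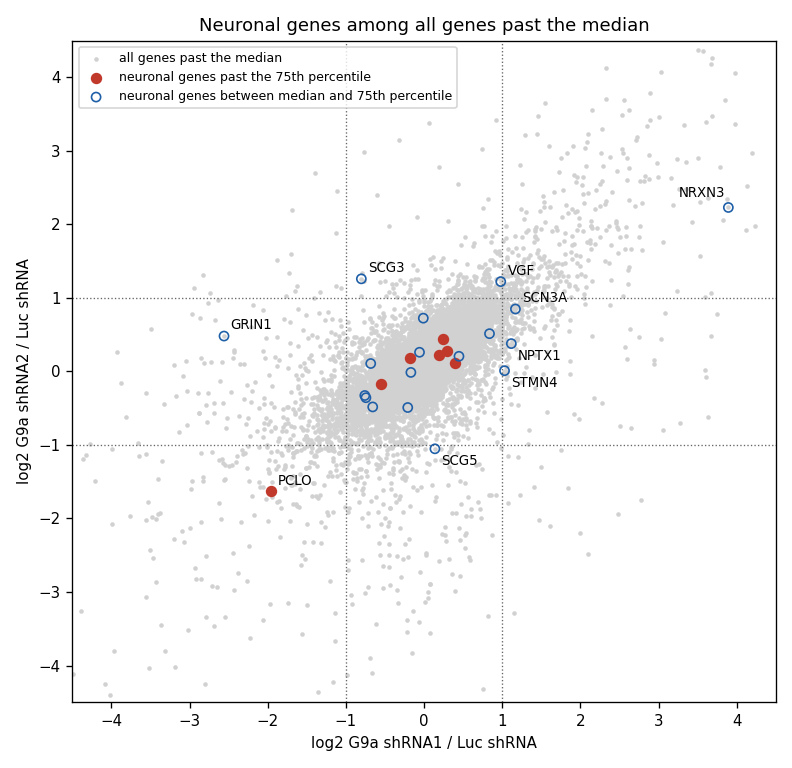
Log2 ratio of the G9a shRNA1 signal (x axis) and of the G9a shRNA2 signal (y axis) to the Luc shRNA signal for genes past the median, with neuronal genes past the 75th percentile as filled red points, the other detected neuronal genes as open blue points and all other genes in grey; dotted lines mark 2-fold. NRXN3 lies in the upper right and PCLO in the lower left corner, both ratios share the Luc shRNA array, and 26 genes lie outside the axes, which end at 4.5.

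REST and its corepressor were both bright and, at their brightest probe sets, lay within 2-fold of the control. REST read 284 with G9a shRNA1 and 235 with G9a shRNA2, against 216 with Luc shRNA, log2 ratios of 0.39 and 0.12. Its second probe set gave 35.2 and 45.5 against 30.9, and the remaining one was under the median on all arrays. Both detected probe sets thus lay on the higher side with both shRNAs. The direction was not the same under every alternative. The mean over all REST probe sets, which takes in the one under the median (-1.56), gave -0.32 with G9a shRNA1. Quantile normalization gave -0.02 with G9a shRNA2. RCOR1, which tethers the demethylase KDM1A and histone deacetylases to REST, read 428 and 426 against 350 with Luc shRNA, log2 ratios of 0.29 and 0.28. A second, dim RCOR1 probe set, with the suffix that marks probes which may also hybridise to other transcripts, read 14.6 and 7.30 against 16.9 (-0.22 and -1.21), on the lower side with both and past 2-fold with G9a shRNA2. At the brightest probe sets, transcript of the repressor and of its corepressor was thus measured well above the 75th percentile on all 3 arrays. Of the 23 measured genes in a list of REST partners and regulators, 21 were past the 75th percentile, 0 were more than 2-fold higher with both shRNAs and 1 was lower, EHMT2 itself, with log2 ratios of -2.62 and -1.20 at its brightest probe set (1 of 23 is 4.35%, against 1.66% of all detected genes). The median of that list was -0.03 with G9a shRNA1 and 0.06 with G9a shRNA2.

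Among the 13 genes of synaptic vesicles and transmitter release, PCLO stood apart. PCLO encodes Piccolo, a very large scaffold protein of the presynaptic active zone, where vesicles dock and fuse. At its brightest probe set it read 39.5 with G9a shRNA1 and 49.5 with G9a shRNA2, against 153 with Luc shRNA, which is 3.88-fold and 3.10-fold lower (log2 ratios of -1.95 and -1.63). Both G9a shRNA readings were under the 75th percentile and that of Luc shRNA above it. A second probe set read 11.3 and 18.9 with the G9a shRNAs, against 45.6 with Luc shRNA, log2 ratios of -2.01 and -1.27, and the remaining one was under the median on all arrays. The 2 detected probe sets thus pointed the same way with both shRNAs. The study itself lists PCLO among genes it picked from these arrays by fold, so its direction is not independent evidence. The 3′ to 5′ signal ratio of β-actin was also lower on both G9a shRNA arrays (above), and its part in the PCLO ratios was not tested.

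The other 7 detected vesicle genes stayed within 2-fold at their brightest probe sets. STX1A, a membrane SNARE of exocytosis, read 42.6 and 34.1 with the G9a shRNAs, against 23.9 with Luc shRNA, log2 ratios of 0.84 and 0.51. SNAP25, its partner SNARE, lay on the other side at 10.7 and 14.4 against 18.0, with ratios of -0.76 and -0.33. The other SNAP25 probe sets were under the median on all arrays. The 2 SNARE genes thus read on opposite sides of the control, both within 2-fold. Over genes at that signal level the log2 ratio between the 2 G9a shRNA arrays had an SD of 0.87. SYP, which encodes the vesicle membrane protein synaptophysin, read 8.07 and 9.11 with the G9a shRNAs and 12.7 with Luc shRNA, log2 ratios of -0.66 and -0.48. SYN1, the vesicle phosphoprotein synapsin whose promoter holds the exact motifs shown above, read 15.3 and 17.0 against 17.2 with Luc shRNA. Its log2 ratios were -0.17 and -0.01, so it was detected on every array and hardly differed between them.

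RAB3A, a small GTPase of vesicles, read 40.9 and 33.6 with the G9a shRNAs, against 47.2 with Luc shRNA (-0.21 and -0.49 on the log2 scale). BSN, which encodes Bassoon, the scaffold related to Piccolo, read 17.4 and 14.7 against 12.8 (0.45 and 0.21). BSN was thus slightly above its control where PCLO was below. UNC13A, a vesicle priming factor, read 20.7 and 35.7 against 33.1, and its second probe set 33.4 and 18.8 against 32.2, so that each shRNA was low at a different probe set. The remaining 5 vesicle genes (SYT1, SYT4, CPLX1, CPLX2 and RAB3C) were under the median on all arrays, with highest signals from 5.14 to 8.41.

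Of the 8 granins and secreted factors, VGF was higher with both shRNAs and BDNF was bright and little changed. VGF is a secreted neuropeptide precursor. It read 23.1 with G9a shRNA1 and 27.3 with G9a shRNA2, against 11.7 with Luc shRNA, log2 ratios of 0.98 and 1.22. Luc shRNA was just under the median and both G9a shRNAs were above it, and after signals below the median were set to it (a floor) the ratios were 0.95 and 1.19. VGF has 1 probe set, with the suffix for possible cross-hybridisation, and it held the RE1-like copy with the single change. The other members with a close match, SYN1 (above) and GRIA2 (under the median on all arrays), did not share that reading.

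BDNF, a neurotrophin, read 325 and 333 with the G9a shRNAs, against 286 with Luc shRNA, log2 ratios of 0.19 and 0.22. Its second probe set lay on the other side, with 136 and 155 against 164. NPTX1, a secreted pentraxin of synapses, read 55.7 and 33.4 against 25.7 with Luc shRNA, log2 ratios of 1.12 and 0.38, so only G9a shRNA1 was past 2-fold. SCG3, a granin-binding protein, read 3.62 with G9a shRNA1 and 15.1 with G9a shRNA2, against 6.32 with Luc shRNA (-0.80 and 1.26), and only G9a shRNA2 passed the median. SCG5, a chaperone of a prohormone convertase, read 15.7 and 6.86 against 14.2 (0.14 and -1.05), low with G9a shRNA2 alone. Neither gene had the shRNAs on the same side of the control. The granins CHGA, CHGB and SCG2, the classic neuroendocrine markers, were under the median on all arrays, with highest signals from 7.35 to 10.3.

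Of 8 genes of the neuronal cytoskeleton only the 2 stathmins STMN3 and STMN4 were detected. STMN3, which destabilises microtubules, read 328 and 429 with the G9a shRNAs, against 481 with Luc shRNA, log2 ratios of -0.55 and -0.16. Its second probe set, near the median, gave -0.47 and -0.07, the same direction with both. STMN4 read 13.2 with G9a shRNA1, 6.52 with G9a shRNA2 and 6.47 with Luc shRNA, and its log2 ratio of 1.03 with G9a shRNA1 became 0.14 with that floor. The neurofilament genes NEFL, NEFM and NEFH, the related filament gene INA, the microtubule-binding gene DCX and STMN2 had highest signals from 0.937 to 10.9. The 4 neuronal RNA-binding proteins (ELAVL2, ELAVL3, ELAVL4 and CELF4) were likewise under the median on every array, with highest signals from 3.15 to 7.64. No fold is given for these genes.

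The ion channels and receptors were dim throughout, and the probe sets of GRIN1 and of SCN8A disagreed among themselves. SCN2A, a voltage-gated sodium channel, read 40.4 and 50.4 with the G9a shRNAs, against 42.1 with Luc shRNA, log2 ratios of -0.06 and 0.26, and its second probe set gave -0.04 and 0.03. SCN3A read 14.9 and 11.9 against 6.62 with Luc shRNA (1.17 and 0.85), and with the floor at the median the ratios were 0.32 and 0.00. The size of its difference therefore depended on signals under the median. SCN8A read 21.7 and 36.1 at its brightest probe set, against 21.8 with Luc shRNA, log2 ratios of -0.01 and 0.72. Of its 6 probe sets, all detected, 2 were more than 2-fold higher with both shRNAs, and the others were not. These 2 were dim with Luc shRNA, at 3.04 and 2.27. GRIN1, the obligate NMDA receptor subunit, read 1.5 and 12.3 against 8.83 with Luc shRNA (-2.56 and 0.48). A second GRIN1 probe set read 14.4 and 3.37 against 3.23 (2.15 and 0.06), and the third 13.0 and 1.05 against 10.7 (0.27 and -3.35). All 3 carry the suffix for possible cross-hybridisation, and they did not give the gene a common direction. GRIA2, GRIK2 and CACNA1A were under the median on all arrays, with highest signals from 4.45 to 10.2.

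NRXN3, a presynaptic adhesion protein, had the largest ratios among the detected members but the weakest signals behind them. It read 12.6 with G9a shRNA1 and 3.97 with G9a shRNA2, against 0.846 with Luc shRNA, log2 ratios of 3.89 and 2.23. Only the G9a shRNA1 reading was past the median. With the floor the ratios were 0.07 and 0.00, and its other 3 probe sets were under the median on all arrays. NLGN1, the postsynaptic partner of neurexins, was not detected.

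The last group, of enzymes and other cytosolic proteins, held 2 of the bright genes. CALB1, which encodes the calcium buffer calbindin, read 730 and 835 with the G9a shRNAs, against 617 with Luc shRNA, log2 ratios of 0.24 and 0.44. Its second probe set read 558 and 672 against 466 and gave 0.26 and 0.53, so both lay on the higher side, within 2-fold. GAD1, the enzyme that makes GABA, read 123 and 158 against 139 with Luc shRNA (-0.17 and 0.18). The further GAD1 probe sets read 112 and 132 against 155, and 85.1 and 123 against 116, with no shared direction for G9a shRNA2. BEX1 read 12.4 and 16.2 with the G9a shRNAs, against 20.8 with Luc shRNA, log2 ratios of -0.74 and -0.36. UCHL1, an abundant deubiquitinase of neurons, was not detected. Without PCLO, the 6 bright genes of the whole set ran from -0.55 to 0.39 with G9a shRNA1 and from -0.16 to 0.44 with G9a shRNA2.

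Probe set by probe set, the 48 genes were covered by 113 probe sets, of which 42 were detected. Among those 42, 3 were more than 2-fold higher with both G9a shRNAs (the 2 of SCN8A and that of NRXN3), as were 3% of all detected probe sets. These 3 were under the median with Luc shRNA and counted as detected through G9a shRNA arrays alone. Lower with both were 2, both of PCLO (1.66% of all detected probe sets). Of the 11 genes with more than 1 detected probe set, 6 had all of them on a single side with G9a shRNA1 and 5 with G9a shRNA2. Only REST, PCLO, STMN3 and CALB1 did so with both shRNAs alike.

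**Figure D3:**
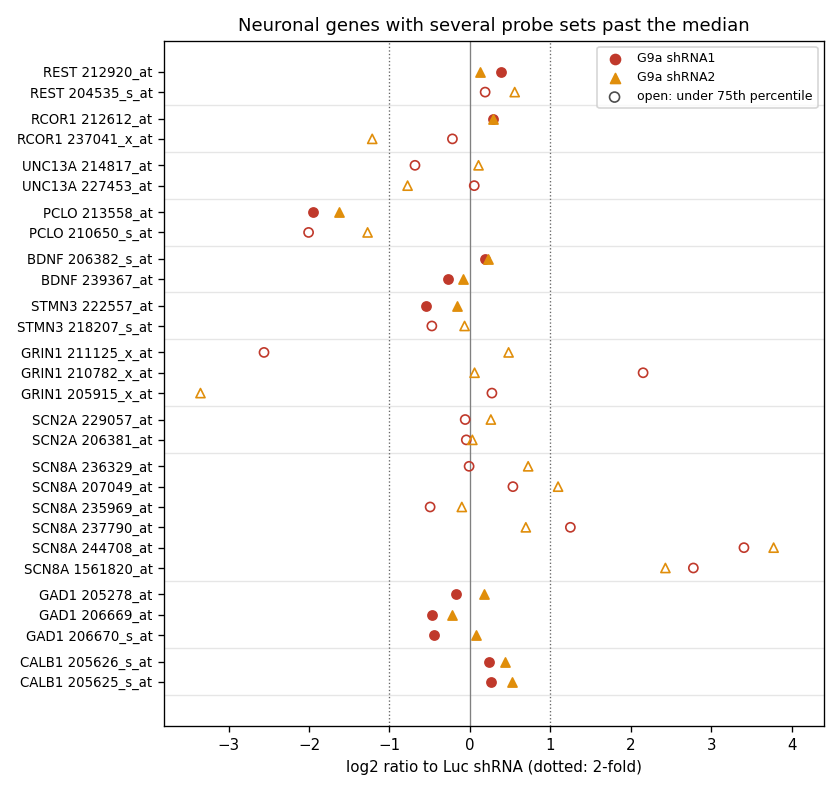
Log2 ratio to Luc shRNA of every detected probe set of the 11 neuronal genes with more than 1 (red circles G9a shRNA1, orange triangles G9a shRNA2, filled where the probe set passed the 75th percentile, dotted lines at 2-fold). Both PCLO probe sets lie left of the 2-fold line, those of GRIN1 scatter to both sides, and 2 of the 6 SCN8A probe sets lie far to the right.

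Further neuronal genes were taken from lists by function. List medians are over all measured genes of a list, detected or not, unless the detected genes are named. Of 36 measured genes in a list of other reported REST targets, 18 were detected and 4 were past the 75th percentile. In that list 1 gene was more than 2-fold higher with both shRNAs and 1 lower, each 5.56% of the detected, against 2.57% and 1.66% of all detected genes. The first, CACNA1H, a T-type calcium channel, read 19.8 and 14.6 with the G9a shRNAs, against 3.06 with Luc shRNA, log2 ratios of 2.69 and 2.25, or 0.73 and 0.29 with the floor. TAC3, the precursor of neurokinin B, read 3.90 and 13.0 against 28.1 (-2.85 and -1.11, or -1.23 and -1.11 with the floor). Both genes were dim and were past the median in only some of the arrays. The list median was -0.33 with G9a shRNA1 and 0.03 with G9a shRNA2, or -0.15 and 0.01 over its detected genes.

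Of 31 other synaptic vesicle genes (median log2 ratios of -0.18 and 0.04), 20 were detected, with medians of -0.25 and -0.06. Of the 20, 1 was more than 2-fold higher with both shRNAs and 3 were lower, which is 5% and 15%, against 2.57% and 1.66% of all detected genes. RIMS2, which encodes an active zone protein of vesicle priming, read 24.3 and 32.8 with the G9a shRNAs, against 8.59 with Luc shRNA, log2 ratios of 1.5 and 1.93, or 1.02 and 1.46 with the floor. A second RIMS2 probe set read 16.9 and 27.7 against 9.76, also higher with both. AMPH, the endocytic protein amphiphysin, read 16.8 and 11.2 with the G9a shRNAs, against 47.2 with Luc shRNA (-1.49 and -2.08). SV2B, a vesicle glycoprotein, gave -1.59 and -1.60, and SLC17A7, a vesicular glutamate transporter, -1.67 and -1.11, both dim with Luc shRNA, at 18.6 and 21.8. With the floor neither stayed past 2-fold, at -0.64 for SV2B and -0.87 for SLC17A7 with both shRNAs, whereas AMPH gave -1.49 and -1.98. A second detected SLC17A7 probe set read 2.44 and 15.7 against 4.93 (-1.02 and 1.67), the other way with G9a shRNA2. Active zone and vesicle genes were thus past 2-fold in either direction, RIMS2 higher and PCLO and AMPH lower.

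Of 18 other neuroendocrine and peptide genes (medians of -0.31 and -0.50), 11 were detected, with medians of -0.12 and 0.10. Of the 11, 1 was more than 2-fold higher and 2 were lower with both shRNAs, which is 9.09% and 18.2%, against 2.57% and 1.66% of all detected genes. NPTXR, the receptor of neuronal pentraxins such as NPTX1, was the bright one, at 86.8 with G9a shRNA1 and 144 with G9a shRNA2, against 309 with Luc shRNA. Its log2 ratios were -1.83 and -1.11, and its second, dim probe set gave -1.83 and -1.11 as well. DDC, which makes dopamine and serotonin, read 20.1 and 15.7 with the G9a shRNAs, against 5.42 with Luc shRNA (1.89 and 1.53). Its second probe set, under the median on all arrays, lay the other way with both, at 0.526 and 1.95 against 10.1. BEX4, a relative of BEX1, read 3.51 and 8.79 against 20.9 (-2.57 and -1.25). With the floor DDC gave 0.75 and 0.39 and BEX4 -0.80 with both shRNAs, so neither stayed past 2-fold.

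None of the other neuronal lists had a detected gene past 2-fold with both shRNAs, nor did the glial markers. These were 22 channels and receptors (3 detected), 23 genes of the cytoskeleton and of synaptic adhesion (16 detected), 20 neurogenic transcription factors (6 detected) and 13 splicing regulators with ELAVL and CELF relatives (8 detected). The median of the cytoskeleton and adhesion list was -0.70 with G9a shRNA1 and -0.49 with G9a shRNA2, or -0.50 and -0.30 over its detected genes. That of the splicing list was -0.18 and 0.09 (detected genes -0.12 and 0.09). That of the transcription factors was 0.01 and 0.33 (detected genes -0.28 and 0.32). The channels, nearly all under the median signal, gave -0.34 and -1.19 (detected genes -0.30 and -0.54). Of the 15 epithelial markers, by comparison, 1 of the 13 detected was more than 2-fold higher with both (7.69%, against 2.57% of all detected genes), KRT19, at 49.9 and 48.2 with the G9a shRNAs against 13.4 with Luc shRNA. The epithelial list had medians of 0.36 and 0.70, or 0.36 and 0.48 over its detected genes.

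**Figure D4:**
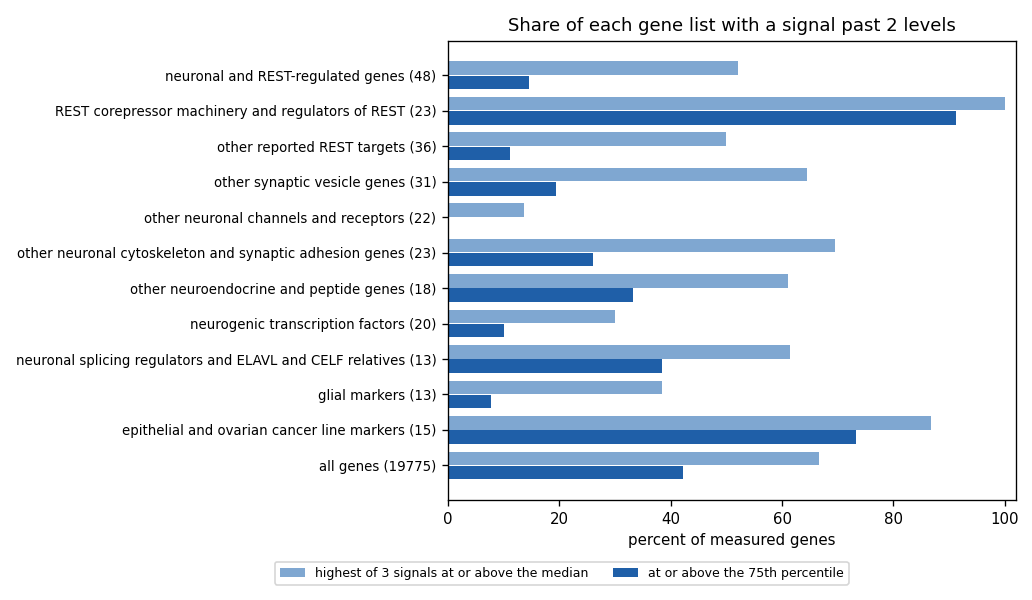
Percent of the measured genes of each list (number in brackets) with a highest signal that reached the median (light bars) or the 75th percentile (dark bars) of all values. Of the 48 neuronal and REST-regulated genes 52.1% passed the median and 14.6% the 75th percentile, against 66.7% and 42.2% of all genes, and the REST partners were nearly all past both.

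RE1-like matches were also read in genes outside the 48. A match with at most 1 mismatch lay in the windows of 73 such genes, of which 49 were measured and 30 detected (61.2% of those measured, against 66.7% of all genes). Of the 30, 2 were more than 2-fold higher with both shRNAs (LHFPL5 and LOC101927253, 6.67%) and 1 was lower (AMBP, 3.33%), against 2.57% and 1.66% of all detected genes, and these names were chosen after their values were seen. The higher pair was far under the median with Luc shRNA, at 0.412 and 1.46. LHFPL5 reached the median with G9a shRNA2 alone, at 13.9, and LOC101927253 with G9a shRNA1 alone, at 16.9. Each thus counted as detected through the array on which it was highest, and no result about RE1 is read from the 6.67%. With at most 2 mismatches, 293 genes were detected by the same rule, of which 15 were higher (5.12%) and 7 lower (2.39%). How many of the 15 were detected in that way was not examined. The median log2 ratio of the 30 was 0.03 with G9a shRNA1 and 0.13 with G9a shRNA2, against 0.00 and 0.12 over all detected genes.

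CpG content of the promoter windows went with detection in this set as it did among all genes. The median count was 33 CpGs in the 19 detected members with a window and 21.3 in the 15 not detected, where genes with several windows entered with their mean. Over all measured genes the counts were 25 and 8.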

How the data were processed

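Total RNA of SKOV-3 cells with G9a shRNA1, G9a shRNA2 or Luc shRNA was extracted with TRIzol and RNeasy columns and hybridised by the authors to Affymetrix arrays of 54675 probe sets. The deposited values are intensities on a linear scale, which the authors made with MAS5, whose version, scaling target and detection calls are not given in the sources used here. They were used without further scaling, and log2 ratios of each G9a shRNA array to the Luc shRNA array were computed from the deposited intensities. MAS5 signals near the background vary widely, so small signals give unstable ratios.

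Probe sets were named through the platform annotation, with symbols updated by Entrez identifier in a RefSeq gene table: 41097 had 1 symbol, 1801 several (not used), 11777 none, and for 54 the identifier had no match. The probe set brightest on average (mean of log2 intensities) stood for a gene. Detected means that the highest of its 3 signals reached the median of all values (12.0). A change means more than 2-fold, the threshold of the study, which states it for either shRNA. The median filter and the counts with both shRNAs are choices made here. No model gives a main p-value, since each condition has 1 array. Between the 2 G9a shRNA arrays the log2 ratio had an SD of 0.24 over genes past the 75th percentile, 0.87 between it and the median, and 1.76 under the median.

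The 48 genes, the 10 lists by function and the alternatives were chosen with earlier results of these data known. Named are all 48 genes, EHMT2, and of each list up to 4 genes past 2-fold with both shRNAs. ERBB2, KRT8, KRT18 and the glial markers GFAP, OLIG2 and SOX10 are named as well. Genes listed by function but without a probe set of a single symbol were not analysed here. Alternatives changed the filter, a floor, the scaling, the fold, the probe set of a gene and the mismatches allowed, and limma 3.58.1 (R 4.3.3) set the G9a shRNA arrays as 1 group against the lone Luc shRNA array, assumed to vary like them. Python 3.11.15 with numpy 2.4.6, pandas 2.3.3 and matplotlib 3.10.9 was used, and the rules were tested on simulated data.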

Additional observations from a re-analysis of the deposited data

Results flagged for a closer look

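A pair of SCN8A probe sets, which the counts by gene did not use, was well above the Luc shRNA array with both G9a shRNAs. The first read 32.3 with G9a shRNA1 and 41.7 with G9a shRNA2, against 3.04 with Luc shRNA, log2 ratios of 3.41 and 3.78. The second read 15.6 and 12.2, against 2.27, log2 ratios of 2.78 and 2.43. SCN8A encodes a sodium channel of axons. The probe set that stood for it, brightest on average over the 3 arrays, gave -0.01 and 0.72. It read 21.7 and 36.1 with the G9a shRNAs, against 21.8 with Luc shRNA, so the first of the pair was brighter on both G9a shRNA arrays. Of the 6 SCN8A probe sets, 4 lay on the higher side and 2 on the lower with G9a shRNA1, and 5 and 1 with G9a shRNA2. One of them was lower with both, with log2 ratios of -0.49 and -0.10. The Luc shRNA signals were under the median of all values at both probe sets of the pair. These thus counted as detected through the G9a shRNA arrays alone. No floor was applied to single probe sets, and the part of the low Luc shRNA signals in the ratios was not tested.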

How the results depend on the processing

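PCLO was more than 2-fold lower with both G9a shRNAs under every alternative of filter, floor, scaling, fold and probe set run. The limma alternative has as its only spread that between the 2 shRNAs and says nothing of the spread of the control. Only its effect sizes are therefore given. Over the 25 detected genes its log2 difference ran from -1.79 (PCLO) to 3.06 (NRXN3). The count of genes higher with both (1) became 6 without a filter, 0 with a filter at the 75th percentile, on the mean signal or with a floor at the median, and 3 at 1.5-fold or over probe sets. The count lower with both (1) became 2 without a filter or over probe sets. With G9a shRNA1, the 4 higher became 10 without a filter, 6 at 1.5-fold, 3 with median centring and 0 at the 75th percentile. They became 1 with the filter on the mean, the floor or 3-fold, 2 with the mean over probe sets and 8 over probe sets. The 2 lower became 6 without a filter, 7 at 1.5-fold and 3 over probe sets. They became 1 at the 75th percentile, with the filter on the mean, the floor, quantile normalization or the mean over probe sets. With G9a shRNA2, the 3 higher became 9 without a filter, 0 at the 75th percentile, 1 with the filter on the mean, the floor or 3-fold, 5 at 1.5-fold and 6 over probe sets, and the 2 lower became 5 without a filter or over probe sets and 1 at the 75th percentile, with the floor or at 3-fold. Counted against the 75th percentile, 6 genes were detected with G9a shRNA1, 6 with G9a shRNA2 and 7 with Luc shRNA. With 3 mismatches, 9 genes held an RE1-like match. GRIN1 with G9a shRNA1 changed from -2.56 to 2.12 under quantile normalization, where another probe set became its brightest. Quantile normalization shifted the log2 ratios of detected genes with G9a shRNA2 by a median of -0.12. Of 200 values of single genes under an alternative, 11 changed sign, 7 of them with the mean over all probe sets (REST, RCOR1, SCN8A, UNC13A, BDNF, GRIN1 and STMN4, each with 1 shRNA) and 3 under quantile normalization (GRIN1, REST and UNC13A), and GRIN1 with G9a shRNA1 was the only one of the 11 past 2-fold before. No paired analysis was possible because each condition has 1 array. Signal over background limits most of the set: 18 of the 25 detected genes were under the 75th percentile.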
